A study of Homo sapiens with 4 samples.

Results

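The transcripts described here are 10 noncoding host genes of small nucleolar RNAs (snoRNAs): GAS5, SNHG1, SNHG5, SNHG6, SNHG7, SNHG8, SNHG12, SNHG15, SNHG16 and ZFAS1. They were found by gene name in the deposited gene table and are 10 of its 58735 genes. The choice of genes used no threshold on a measured value but was made with earlier results of these data known. OVCAR8 cells, a line established from a human ovarian carcinoma, were sequenced as 2 groups of 2 RNA-seq libraries. Cells of the group shFAM49B carried lentiviral short hairpin plasmids against FAM49B, an inhibitor of RAC1 signalling to actin, and cells of the group shCON, labelled WT, carried a scrambled hairpin. Per the labels' protocols the plasmids were transfected with a lipid reagent and cells were harvested after 36 h, while the design text speaks of a stable knockdown. The labels name neither the hairpin sequence nor a selection of transfected cells, and they do not say whether the libraries of a group were separate cultures. The p-values therefore reflect no more than the spread among these 4 libraries, and that spread may be technical.

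Small nucleolar RNAs guide chemical modification of ribosomal RNA. Those of the box C/D class guide ribose methylation, and those of the box H/ACA class guide the conversion of uridine to pseudouridine. In human cells most are cut from introns of longer host transcripts, either of protein-coding genes, many of which make ribosomal proteins or translation factors, or of noncoding genes such as those described here. After the introns are removed, the spliced exons of a noncoding host carry no long reading frame. Several of these RNAs are nevertheless taken up by ribosomes and are then degraded by nonsense-mediated decay, so their level rises when translation stops. They often begin with the 5′ terminal oligopyrimidine (TOP) motif of ribosomal protein mRNAs, a cap-adjacent C followed by a run of pyrimidines, through which mTORC1 and LARP1 control translation and stability.

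The 5′ ends show which of the host transcripts carry that motif in the annotation. The first 30 bases of 1 GENCODE 29 transcript (GRCh38) are printed for 9 of the 10 genes, all but SNHG6, in capitals for an opening C and the pyrimidines that follow it directly. The transcript with the longest such run was taken, among those that start within 10 bases of the RefSeq start where there were any and among all of the gene's transcripts otherwise.
GAS5, chromosome 1, minus strand, start 173867989: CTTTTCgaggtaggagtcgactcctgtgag
SNHG1, chromosome 11, minus strand, start 62855885: CTCatttttctactgctcgtggtaagtggc
SNHG5, chromosome 6, minus strand, start 85678733: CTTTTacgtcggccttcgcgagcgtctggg
SNHG16, chromosome 17, plus strand, start 76557769: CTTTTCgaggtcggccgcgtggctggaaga
ZFAS1, chromosome 20, plus strand, start 49278642: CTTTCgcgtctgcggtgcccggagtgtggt
SNHG7, chromosome 9, minus strand, start 136728184: CTCTgcgtgcgccggaggctgccgtggcgg
SNHG8, chromosome 4, plus strand, start 118278758: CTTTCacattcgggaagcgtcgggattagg
SNHG15, chromosome 7, minus strand, start 44986570: CCgccatcctgggccccacgtgttgcctga
SNHG12, chromosome 1, minus strand, start 28581873: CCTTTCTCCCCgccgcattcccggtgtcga
A C followed directly by at least 4 pyrimidines (C or T) opened 7 of the 10 chosen transcripts, those of GAS5, SNHG5, SNHG6, SNHG8, SNHG12, SNHG16 and ZFAS1. Because transcripts were taken for the longest run, that count is no unselected share. SNHG12 had the longest run, with 10 pyrimidines after the C. SNHG7 had 3, SNHG1 had 2 and SNHG15 had 1. Over every annotated transcript of a gene, read on the gene's own strand, 8 of 10 host genes had such a start. The same held for 65 of 78 ribosomal protein genes (83.3%) and for 5 of 14 other tested noncoding snoRNA hosts (35.7%). It also held for 6.10% of 1099 tested noncoding genes and for 15.6% of 13769 tested genes with a sequence. The 10 host genes also have more annotated transcripts to choose from. Their median was 10, against 5 for the other noncoding hosts and 1 for tested noncoding genes. Counted per transcript, the motif opened 16.9% of 136 transcripts of the 10 host genes and 11.1% of 117 transcripts of the other noncoding hosts. For tested noncoding genes it opened 3.42% of 2779 transcripts.

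Promoter sequence of RefSeq (GRCh38.p14) was held for 8 of the 10 genes, all but SNHG6 and SNHG15. The windows below run from 50 bases before the start to 50 bases from it, for the 2 genes with the highest and the 2 with the lowest log2 fold change among these 8. Capitals mark TATAA and an opening C with its pyrimidines at the RefSeq start, where present.
SNHG7, chr9:136728135-136728234, minus strand: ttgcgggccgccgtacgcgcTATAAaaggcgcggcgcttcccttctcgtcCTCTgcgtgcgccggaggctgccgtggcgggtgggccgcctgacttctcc
SNHG16, chr17:76557714-76557813, plus strand: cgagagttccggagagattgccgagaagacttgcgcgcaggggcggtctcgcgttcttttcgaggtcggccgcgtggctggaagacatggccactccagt
SNHG8, chr4:118278712-118278811, plus strand: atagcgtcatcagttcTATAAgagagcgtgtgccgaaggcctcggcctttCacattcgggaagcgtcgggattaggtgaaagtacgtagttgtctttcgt
SNHG1, chr11:62855836-62855935, minus strand: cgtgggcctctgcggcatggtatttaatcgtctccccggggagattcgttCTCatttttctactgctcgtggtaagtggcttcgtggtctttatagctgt
The letters TATAA lay between 40 and 16 bases upstream of the start, on the gene's strand, in 5 of the 8 host promoters, those of SNHG5, SNHG7, SNHG8, SNHG12 and ZFAS1. The same letters in that window were found in 3.91% of 35116 RefSeq promoters, in 9.09% of 77 promoters of ribosomal protein genes and in 1 of 18 promoters of other noncoding snoRNA hosts. On the opposite strand the host promoters held them in 1 of 8, against 1.73% of all promoters. Exactly at the RefSeq start, a C with at least 4 pyrimidines stood in 3 of the 8 host promoters (37.5%), against 59.7% of promoters of ribosomal protein genes, 22.2% of those of other noncoding hosts and 4.07% of all. The SNHG16 start of RefSeq lies 5 bases upstream of the printed GENCODE start, at chromosome 17, position 76557764. For SNHG8 the RefSeq start is position 118278762, downstream of the printed start at 118278758. For GAS5 it is position 173869045, and no GENCODE transcript of GAS5 starts within 10 bases of it. The promoter counted for GAS5 is therefore not that of its printed start at 173867989. SNHG7 and SNHG1, with the highest and the lowest log2 fold change of the 10 genes, both lacked the run of at least 4 pyrimidines at their chosen start. So did SNHG15 (log2 fold change -0.28), while the other host genes, with log2 fold changes from -0.13 to 0.90, had it. Among all annotated transcripts of SNHG1, 1 of 25 has such a run. Whether the motif goes with the change was not tested.

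Levels are FPKM as deposited, which are reads divided by gene length and by a library size that the authors had scaled between libraries, and are given as mean ± SD (n = 2). The reads behind each value could be recovered and came to 16288871 and 16290200 per library in shFAM49B and to 15639559 and 16875353 in shCON. Each host gene held between 156 and 3380 reads in a library. FAM49B stood at 1.04 ± 0.0332 FPKM in shFAM49B and at 7.51 ± 0.139 FPKM in shCON (log2 fold change -2.06, limma adjusted p = 0.00054). Of 6 markers of ovarian epithelial cancer, 4 averaged at least 1 FPKM, with KRT8 at 37.4 to 38.4 FPKM in shFAM49B and 39.2 to 41.7 FPKM in shCON. PAX8 and MUC16 stayed at or under 0.112 FPKM in all libraries, and EPCAM was at 0.129 and 0.345 FPKM in shFAM49B against 2.94 and 2.96 FPKM in shCON. None of 4 leukocyte, 3 endothelial and 2 erythroid markers averaged 1 FPKM, and of 4 fibroblast markers COL1A1 did (5.91 and 6.55 FPKM in shFAM49B, 5.36 and 5.83 FPKM in shCON).

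All 10 host genes passed the filter on low values, which kept genes averaging 1 FPKM or more. In limma on log2(FPKM + 1), with Benjamini-Hochberg adjustment over the 13775 tested genes, 5 host genes rose in shFAM49B (26.4% of all tested genes did), 1 fell (15.8% of all did) and 4 did not pass. SNHG7, SNHG16, SNHG6, ZFAS1 and SNHG5 rose by 1.37-fold to 2.04-fold, and SNHG1 fell by 1.31-fold. The libraries of the groups did not overlap for 9 of the 10 genes, with shFAM49B above shCON for 7 (43.1% of all tested genes) and below it for 2 (31.6% of all). The median log2 fold change of the 10 genes was 0.43, against 0.05 over all tested genes. In bulk RNA, a change in the number of transfected cells and a change of RNA per cell cannot be told apart.

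**Figure D1:**
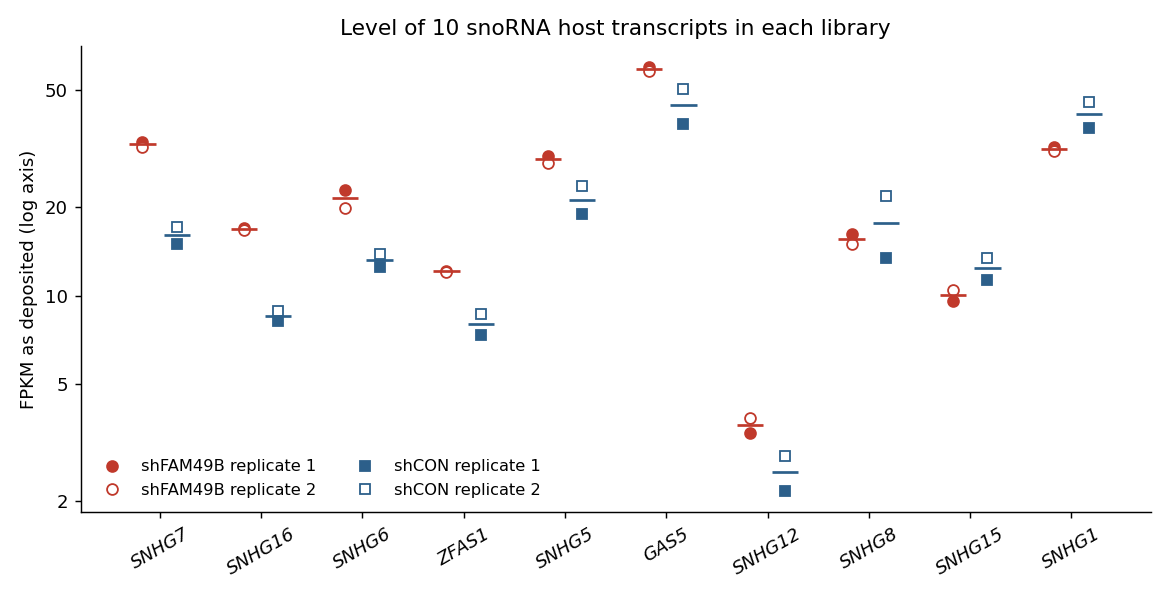
Level of each snoRNA host gene in FPKM as deposited, on a log axis, with shFAM49B libraries as red circles, shCON libraries as blue squares and a line at each group's mean (n = 2). Genes are ordered by log2 fold change, and SNHG8 has overlapping groups, with its shCON libraries at 13.4 and 21.9 FPKM.

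Of the 6 hosts of box C/D snoRNAs, 4 rose, 1 fell and 1 did not pass, where 26.4% of all tested genes rose and 15.8% fell. SNHG16 (chr17:76557766-76565348, plus strand), the host of the SNORD1 family, had 16.9 and 16.7 FPKM in shFAM49B, against 8.23 and 8.85 FPKM in shCON. Both shFAM49B libraries stood far above the shCON libraries, and the libraries within a group differed little. The rise was 1.97-fold (log2 fold change 0.90, SE 0.0641, limma adjusted p = 0.00167). SNHG6 (chr8:66921684-66926398, minus strand), which hosts SNORD87, had 22.9 and 19.9 FPKM in shFAM49B, against 12.6 and 13.9 FPKM in shCON. Its groups did not overlap, with a rise of 1.62-fold (log2 fold change 0.65, limma adjusted p = 0.0049).

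ZFAS1 (chr20:49278178-49295738, plus strand) runs antisense to the start of ZNFX1 and hosts the SNORD12 family. It had 12.2 and 12.0 FPKM in shFAM49B, against 7.37 and 8.63 FPKM in shCON, and rose 1.51-fold (log2 fold change 0.54, SE 0.085, limma adjusted p = 0.00704). SNHG5 (chr6:85660950-85678748, minus strand), the host of the SNORD50 snoRNAs, had 29.8 and 28.3 FPKM in shFAM49B, against 18.9 and 23.5 FPKM in shCON. It rose 1.37-fold (log2 fold change 0.44, SE 0.108, limma adjusted p = 0.0255). The SNHG5 libraries of the groups did not overlap, but the shCON libraries stood 1.24-fold apart, and its call was lost under 7 of 13 alternatives, among them TPM (log2 fold change 0.21, limma adjusted p = 0.205) and the fits without shCON replicate 1 (0.061), without shFAM49B replicate 1 (0.111) and without shFAM49B replicate 2 (0.091).

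GAS5 (chr1:173863900-173868882, minus strand), first found as a transcript that accumulates in growth-arrested cells and known to bind the glucocorticoid receptor, was the most abundant of the 10. It ranked 3 of 1099 tested noncoding genes by mean level. Its level was 59.8 and 58.1 FPKM in shFAM49B, against 38.4 and 50.3 FPKM in shCON. Both shFAM49B libraries lay above both shCON libraries, while the shCON libraries were 1.31-fold apart, about as far as the groups' means (1.33-fold). The difference missed the threshold (log2 fold change 0.42, SE 0.129, limma adjusted p = 0.0502) and passed under 4 of 13 alternatives, one of them the fit without shCON replicate 2, with limma adjusted p between 0.00161 and 0.464 over all 13.

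SNHG1 (chr11:62851988-62855914, minus strand), which carries the SNORD22 and SNORD25 to SNORD30 snoRNAs in its introns, was the only host gene of the 10 that fell. It had 32.0 and 31.0 FPKM in shFAM49B and 37.2 and 45.6 FPKM in shCON. The shFAM49B libraries lay close together below both shCON libraries. SNHG1 fell by 0.38 on the log2 scale (SE 0.103, limma adjusted p = 0.0357). That call was lost under 4 alternatives, with a negative sign each time. The first was the fit without a filter, which kept every gene that held reads (limma adjusted p = 0.125). The others were the fits without shCON replicate 2, without shFAM49B replicate 1 and without shFAM49B replicate 2.

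Of the 3 hosts of box H/ACA snoRNAs, SNHG7 rose and 2 did not pass, against the same 26.4% and 15.8% of all tested genes. SNHG7 (chr9:136721366-136728184, minus strand), which hosts the SNORA17 snoRNAs, had 33.4 and 32.0 FPKM in shFAM49B, against 15.0 and 17.1 FPKM in shCON. The groups were far apart relative to their spread, and the 2.04-fold rise was the largest of the 10 genes (log2 fold change 0.99, SE 0.0792, limma adjusted p = 0.00187). SNHG15 (chr7:44983023-44986961, minus strand), the host of SNORA9, had 9.58 and 10.4 FPKM in shFAM49B, against 11.3 and 13.4 FPKM in shCON. Its shFAM49B libraries lay below its shCON libraries, with a log2 fold change of -0.28 that missed the threshold (SE 0.0965, limma adjusted p = 0.0676). SNHG15 passed under 6 alternatives, among them TPM (log2 fold change -0.54, limma adjusted p = 0.0145).

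SNHG8 (chr4:118278709-118279823, plus strand), the host of SNORA24, had 16.3 and 15.0 FPKM in shFAM49B, and 13.4 and 21.9 FPKM in shCON. Both shFAM49B libraries fell between the shCON libraries, which were 1.63-fold apart, so no difference could be read (log2 fold change -0.13, SE 0.213, limma adjusted p = 0.657). Without shCON replicate 1 the log2 fold change was -0.46 (limma adjusted p = 0.0321), and without shCON replicate 2 it was 0.20 (limma adjusted p = 0.17). In fits that leave out 1 library, the lone library of a group is assumed to vary like the 2 of the other group. SNHG12 (chr1:28578538-28583132, minus strand), whose introns hold snoRNAs of both classes, was the least abundant, with 3.41 and 3.85 FPKM in shFAM49B and 2.17 and 2.85 FPKM in shCON. Its groups did not overlap, yet the 1.45-fold difference missed the threshold (log2 fold change 0.41, SE 0.126, limma adjusted p = 0.0509) and passed under 4 of 12 alternatives, one of them the fit without shCON replicate 2 (limma adjusted p = 0.048). Coordinates of all 10 genes are those of the deposited table, on GRCh38.

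The shCON libraries differed from each other in the same direction at every host gene. All 10 stood lower in shCON replicate 1 than in shCON replicate 2, where 47.4% of all tested genes did, and the ratio of replicate 2 to replicate 1 ran from 1.08 to 1.63 with a median of 1.21. The median of that ratio over all tested genes was 0.993. Of 14 other noncoding snoRNA hosts, 12 were also lower in shCON replicate 1 (median ratio 1.18), as were 68 of 78 ribosomal protein genes (median ratio 1.09) but 6 of 17 TOP mRNAs of translation factors (median ratio 0.967). In shFAM49B the same ratio of replicate 2 to replicate 1 ran from 0.872 to 1.13 over the 10 genes, with 8 lower in replicate 2. For SNHG7, SNHG16, SNHG6 and ZFAS1 the difference between groups was well beyond the spread of the shCON libraries, while for GAS5, SNHG12, SNHG5, SNHG1 (1.31-fold lower in shFAM49B, shCON libraries 1.23-fold apart) and SNHG15 (1.24-fold lower, shCON libraries 1.19-fold apart) the sizes were close. The part of this spread in the differences between groups was not tested.

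**Figure D2:**
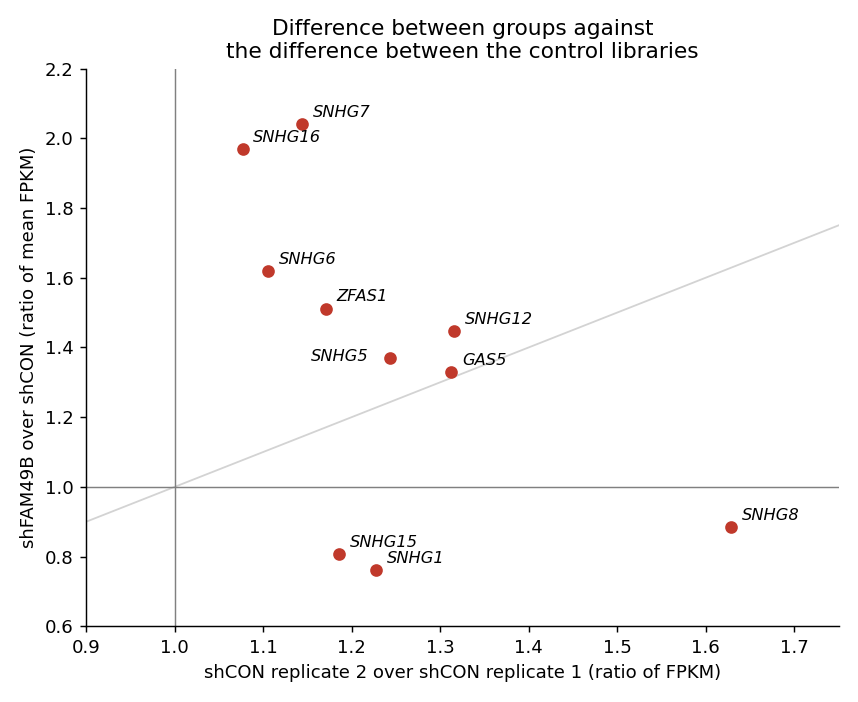
Ratio of mean FPKM, shFAM49B over shCON, against the ratio of the shCON libraries, replicate 2 over replicate 1, for each host gene. Dark grey lines mark a ratio of 1 and the light line equal ratios on both axes. All 10 points lie right of 1, and SNHG8 lies farthest right at 1.63.

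The scaling set the size of these differences but not their order between the extremes. As TPM, the log2 fold changes of tested genes were lower by a median shift of -0.24, and scaling by recovered reads by -0.19. The share of calls that were higher in shFAM49B over all tested genes was 62.7% as deposited, 26.8% as TPM, 29.2% relative to recovered reads, 52.5% by median ratios over tested genes, 52.0% after quantile normalization and 49.3% with voom. SNHG7, SNHG16, SNHG6 and ZFAS1 rose under each of the 13 alternatives. As TPM their log2 fold changes were 0.78, 0.72, 0.44 and 0.35. The median of the 10 genes was 0.24 as TPM, where the median of all tested genes was -0.17. SNHG1 had log2 fold changes of -0.63 as TPM and -0.60 relative to recovered reads, further below 0 than as deposited.

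**Figure D3:**
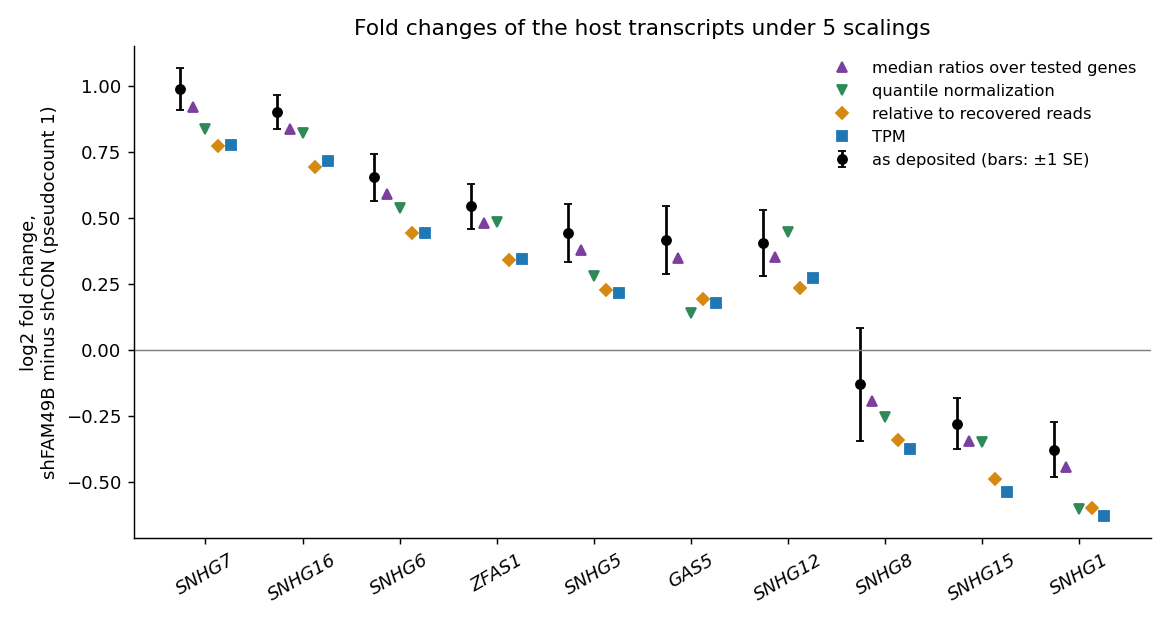
Log2 fold change, shFAM49B minus shCON, of each host gene on values as deposited (black, bars of 1 SE) and under 4 other scalings, with a pseudocount of 1. SNHG7 is highest and SNHG1 lowest under each of the 5 scalings.

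Gene length and neighbouring genes bear on these levels. The length by which FPKM was divided equals the union of all GENCODE 29 exons for each of the 10 genes, from 923 bases for SNHG8 to 5362 bases for SNHG16. It includes retained introns, which are annotated in 19 of 29 transcripts of GAS5 and 13 of 25 of SNHG1. The union is 3631 bases for GAS5 where its median annotated transcript has 688, so the FPKM of a short spliced form is understated, equally in both groups unless the mix of transcripts changed. The sources used here do not say that counting used strand, and 6 of the 10 genes share exon bases with a gene on the opposite strand. For SNHG7 these are 25.2% of its exon bases, shared with FAM69B, which rose too (40.7 and 40.2 FPKM in shFAM49B, 31.6 and 34.0 FPKM in shCON, log2 fold change 0.29, limma adjusted p = 0.0154). ZFAS1 shares 249 bases with ZNFX1, which fell by 0.23 on the log2 scale (limma adjusted p = 0.0422). The gene opposite SNHG16, AC015802.6, and the gene opposite SNHG6, MCMDC2, stayed at or under 0.124 FPKM. GAS5 shares 42 bases with GAS5-AS1 and SNHG12 shares 8 with TRNAU1AP, and neither partner passed. Reads from the shared bases cannot be told apart.

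The snoRNA genes themselves held almost no reads in these libraries. The table lists 26 snoRNA genes inside the host genes on their strand, none of them inside GAS5, whose snoRNAs were not analysed here. Reads fell on 4 of the 26, namely SNORD99, SNORD1B, SNORD12B and SNORD12C, with 18 and 14 reads in all in shFAM49B and 2 and 15 reads in shCON. SNORD1B inside SNHG16 had 5 and 5 reads in shFAM49B, against 0 and 7 reads in shCON. SNORD12B inside ZFAS1 had 8 and 3 reads in shFAM49B, against 0 and 6 reads in shCON, and SNORD12C had 2 and 5 reads in shFAM49B, against 0 and 0 reads in shCON. SNORD99 inside SNHG12 had 3 and 1 reads in shFAM49B, against 2 and 2 reads in shCON. The other listed snoRNA genes had 0 reads in every library. Differences of these snoRNA genes were not tested, and whether the reads came from mature snoRNA or from unspliced host RNA was not tested.

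Of 20 other snoRNA hosts, listed as noncoding from textbook knowledge, 14 were tested. Among them SNHG32 has a protein-coding biotype in the deposited annotation. Of the 14, 4 rose (28.6%, against 26.4% of all tested genes), 3 fell (21.4%, against 15.8%) and 7 did not pass. These shares were near those of all tested genes, with a median log2 fold change of 0.21 (-0.01 as TPM). SNHG29, listed in the table as LRRC75A-AS1, measured 55.1 ± 0.974 FPKM in shFAM49B and 35.4 ± 2.47 FPKM in shCON, 1.55-fold higher (limma adjusted p = 0.00298). SNHG19 was at 24.2 ± 1.37 FPKM in shFAM49B and 15.7 ± 1.32 FPKM in shCON, 1.55-fold higher. DANCR, the host of SNORA26 and a long noncoding RNA that holds back differentiation, stood at 38.5 ± 2.97 FPKM in shFAM49B and 24.0 ± 4.20 FPKM in shCON, 1.61-fold higher (limma adjusted p = 0.0119). The DANCR call was lost without a filter (limma adjusted p = 0.0665) and without shFAM49B replicate 2 (0.0751).

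Protein-coding hosts of snoRNAs mostly rose. Of 49 such genes, 40 rose (81.6%, against 26.4% of all tested genes) and 9 did not pass in limma. The median log2 fold change was 0.80. The 24 that encode ribosomal proteins all rose (median 0.87), and of the 25 others 16 rose (median 0.50). Some of the 25 are also in the lists of TOP mRNAs of translation factors or of snoRNA particle proteins below. The table holds a snoRNA gene inside 48 of the 49 on their strand. HSPA8, a constitutive chaperone gene that hosts SNORD14 copies, was at 248 ± 8.91 FPKM in shFAM49B and 89.0 ± 4.27 FPKM in shCON, 2.78-fold higher. EIF4A2, a subunit of the cap-binding translation initiation complex, was at 88.7 ± 2.89 FPKM in shFAM49B and 44.5 ± 1.57 FPKM in shCON. RPL4, of the large ribosomal subunit, was at 605 ± 14.3 FPKM in shFAM49B and 312 ± 6.25 FPKM in shCON (limma adjusted p of these genes 0.000697 to 0.00128). The median fell to 0.26 after quantile normalization, where 31 rose and 5 fell, and was 0.56 as TPM, where 37 rose and 5 fell. Of all 13775 tested genes, 2647 rose and 2446 fell after quantile normalization (median 0.02), while 1597 rose and 4362 fell as TPM (median -0.17).

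TOP mRNAs rose together as deposited. All 78 ribosomal protein genes of a list of 78 rose, against 26.4% of all tested genes (median log2 fold change 0.77). RPL39 among them was at 391 ± 6.16 FPKM in shFAM49B and 201 ± 7.53 FPKM in shCON. As TPM, 74 of the 78 rose and 0 fell (median 0.54), where 1597 of all 13775 tested genes rose and 4362 fell. After quantile normalization, 55 of the 78 rose and 1 fell (median 0.27), where 2647 of all tested genes rose and 2446 fell. Reads of ribosomal protein genes can be shared with their many processed pseudogenes. All 17 tested TOP mRNAs of translation factors rose (median 0.68). As TPM 13 of them rose and 0 fell (median 0.43), and after quantile normalization 9 rose and 1 fell (median 0.18). EIF4B, which stimulates the helicase eIF4A, was at 173 ± 1.67 FPKM in shFAM49B and 85.4 ± 4.17 FPKM in shCON. TPT1, the translationally controlled tumour protein, was at 102 ± 0.71 FPKM in shFAM49B and 58.2 ± 1.36 FPKM in shCON. The 5 host genes that rose had log2 fold changes between 0.44 and 0.99, and the ribosomal protein genes had log2 fold changes between 0.33 and 0.99, while SNHG8, SNHG15 and SNHG1 lay below the lowest ribosomal protein gene.

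**Figure D4:**
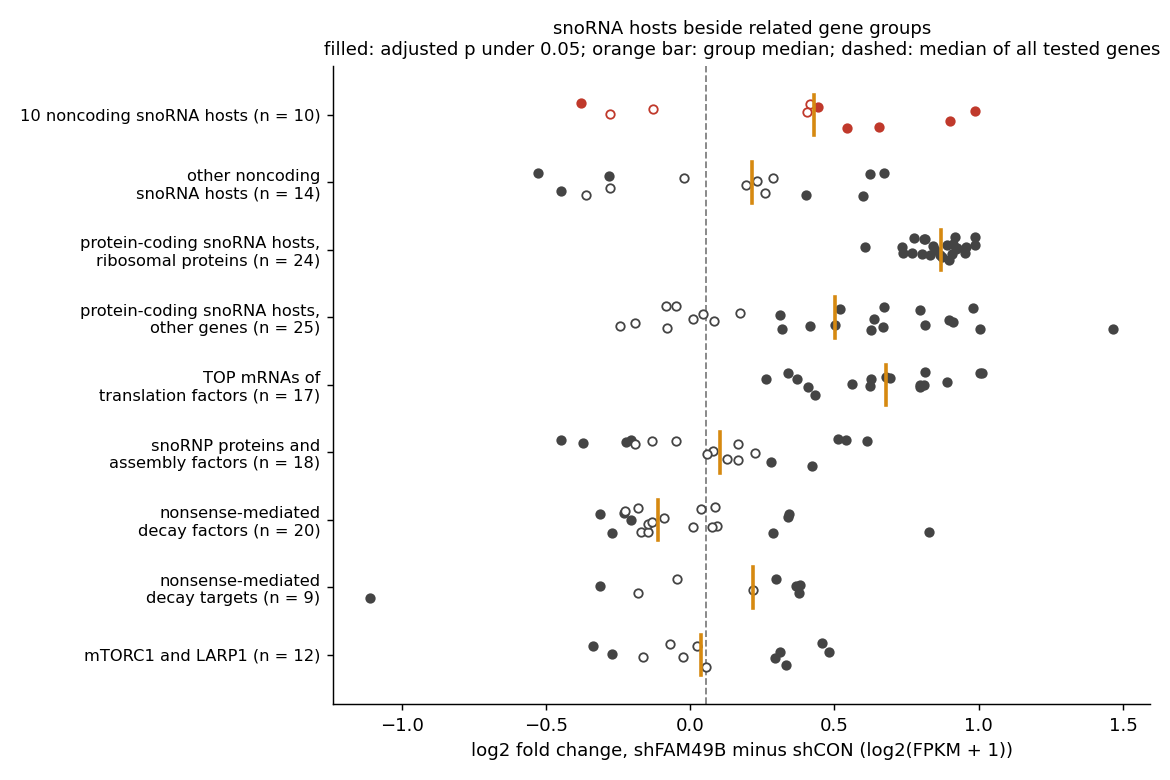
Log2 fold change, shFAM49B minus shCON, of the 10 host genes (red) and of related gene groups (grey). Each point is a tested gene, filled where limma's adjusted p was under 0.05. A gene that belongs to several groups has a point in each. Orange bars mark group medians and the dashed line the median of all tested genes, 0.05. The ribosomal protein hosts lie to the right of it, and both sets of noncoding hosts lie on both sides of it.

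Genes that act on snoRNAs or on host transcripts were called in shares near those of all tested genes (26.4% higher and 15.8% lower). Of 18 proteins of snoRNA particles and their assembly, 5 rose (27.8%), 4 fell (22.2%) and 9 did not pass (median log2 fold change 0.10), while as TPM 3 rose and 7 fell (median -0.12). As TPM, 1597 of all 13775 tested genes rose and 4362 fell (median -0.17), against which this and the following TPM counts are read. FBL, the methyltransferase fibrillarin of box C/D particles, was at 212 ± 7.89 FPKM in shFAM49B and 138 ± 0.349 FPKM in shCON (limma adjusted p = 0.00227), and RUVBL2, an ATPase of the assembly complex, was 1.46-fold higher. Of 20 factors of nonsense-mediated decay, 4 rose (20%), 4 fell (20%) and 12 did not pass (median -0.11), and as TPM 1 rose and 10 fell (median -0.36). RNPS1, a protein of the exon junction complex that stimulates decay, rose 1.80-fold, to 66.0 ± 0.472 FPKM in shFAM49B against 36.7 ± 0.819 FPKM in shCON (limma adjusted p = 0.00136).

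Of 9 tested mRNAs known as targets of nonsense-mediated decay, 4 rose (44.4%, against 26.4% of all tested genes) and 2 fell (22.2%, against 15.8%). The other 3 did not pass, and the median log2 fold change of the 9 was 0.22. As TPM 3 fell and 6 did not pass. Some of the 9 are also in the list of decay factors. UPP1, uridine phosphorylase, fell to 4.06 ± 0.549 FPKM in shFAM49B, against 9.89 ± 0.171 FPKM in shCON (limma adjusted p = 0.00198). TBL2 was at 15.3 ± 0.878 FPKM in shFAM49B and 11.6 ± 0.282 FPKM in shCON (limma adjusted p = 0.0101), a call lost under 4 alternatives, among them TPM (adjusted p = 0.0926), without shCON replicate 2 (0.0561) and without shFAM49B replicate 2 (0.0522). Of 12 genes of mTORC1 signalling and LARP proteins, 5 rose (41.7%, against 26.4% of all tested genes) and 2 fell (16.7%, against 15.8%). The other 5 did not pass, and the median of the 12 was 0.04. As TPM 2 rose and 5 fell (median -0.19). MLST8, an mTOR subunit, was at 32.9 ± 2.19 FPKM in shFAM49B and 23.3 ± 0.0013 FPKM in shCON (limma adjusted p = 0.00493). RHEB, the GTPase that activates mTORC1, was at 20.1 ± 0.73 FPKM in shFAM49B and 14.4 ± 0.84 FPKM in shCON (limma adjusted p = 0.00617).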

How the data were processed

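RNA-seq of 4 libraries (2 shFAM49B, 2 shCON, grouped by sample title) was deposited by the authors as gene FPKM. For aligner and counter, nothing is given in the sources used here. Mouse builds (GRCm38, mm10) are listed in the submitters' processing notes, whereas all 58735 identifiers are human genes of GENCODE 29, 58724 of them with its GRCh38 coordinates. Multiplied by gene length, 100% of FPKM values above 0 were whole multiples of 1 step per library (tolerance 0.001 of a step), which gave the reads. The deposited denominators equalled median-ratio factors over 20791 genes with reads in every library. They were 0.941 and 0.919 times the recovered reads in shFAM49B and 1.08 and 1.10 times in shCON.

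Values as deposited were tested with limma 3.58.1 (R 4.3.3) on log2(FPKM + 1), which understates changes of low genes, with a mean-variance trend, 2-sided, over the 13775 genes averaging 1 FPKM or more, Benjamini-Hochberg adjusted, threshold 0.05. The procedure was also run on simulated reads with known changes, which did not test the choice of scaling. Folds are ratios of mean FPKM. Replicates differed by a chi-square per gene of 3.48 (shFAM49B) and 3.90 (shCON), beyond counting noise. Alternatives were 13: a pseudocount of 0.1, no filter, a filter at 5 FPKM, 4 scalings, voom with TMM factors on the recovered reads, a replicate block and 4 libraries left out in turn. The genes and the 8 lists were chosen with earlier results of these data known. The lists share some genes, so their counts are not independent. Named genes are the 10 hosts, FAM49B, snoRNA genes inside a host with a mean of at least 1 FPKM in either group and the list members of smallest p (up to 3 for host lists, up to 2 for others). Marker genes, genes that overlap a host and SNHG32 were named in addition. One gene of the lists and one overlapping gene are not reported here.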

Additional observations from a re-analysis of the deposited data

How the results depend on the processing

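Of the 10 host genes, 4 (SNHG7, SNHG16, SNHG6 and ZFAS1) passed under all 13 alternatives, and 9 kept their sign. SNHG8 had a log2 fold change of -0.13, against 0.20 without shCON replicate 2 and -0.46 without shCON replicate 1, its shCON libraries being 1.63-fold apart. Host genes called higher numbered 5, and 4 to 7 when 1 library was left out. Host genes called lower numbered 1, against 0 without a filter, 2 with a filter at 5 FPKM, as TPM, relative to recovered reads, by median ratios over tested genes and with voom, and 0 to 2 when 1 library was left out. Lower calls over all 13775 tested genes numbered 2170 as deposited, 4362 as TPM, 4173 relative to recovered reads, 2647 by median ratios and 3514 with voom. With a filter at 5 FPKM they numbered 1322 of 7756 genes. With the replicate number as a block, 7 host genes were called higher and 2 lower, where 3429 and 2036 of all 13775 tested genes were. The numbers do not pair the samples by label, and deviations of same-numbered libraries correlated at -0.01 over 13775 genes.

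Over all tested genes, 3642 higher calls became 2185 without a filter, 1597 as TPM, 1722 relative to recovered reads and 1897 to 2495 with 1 library left out. The 2170 lower calls became 1378 without a filter, 1322 with a filter at 5 FPKM, 4362 as TPM, 4173 relative to recovered reads, 3514 with voom and 1027 to 1529 with 1 library left out. Over the genes of the 8 lists, 129 higher calls became 85 after quantile normalization and 105 to 120 with 1 library left out. Their 14 lower calls became 4 without a filter, 30 as TPM, 30 relative to recovered reads, 27 after quantile normalization, 25 with voom and 2 to 4 with 1 library left out. The causes were not tested. The spread was estimated with 2 residual degrees of freedom, and with 1 where a library was left out, when it came from the other group alone.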
